A study of Homo sapiens with 6 samples.

Results

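The axon guidance ligands and receptors were followed in 6 RNA-seq libraries of human melanoma cells, 2 libraries for each of 3 groups. Members were the protein-coding genes whose symbols name them as semaphorins of classes 3 to 7, plexins, neuropilins, SLIT ligands, ROBO receptors, netrins, netrin-G proteins, netrin receptors (DCC and the UNC5 genes) or ephrin ligands. This gave 57 genes of the 19892 protein-coding genes in the files, 37 ligands and 20 receptors in 11 families. The rule used the symbols alone and no measured value, but members were chosen with earlier results of these data known.

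The parental group was 1205LuTR, a derivative of the BRAF-mutant human melanoma line 1205Lu that carries a GAL4-ELK1 reporter, given DMSO. The other groups were PBRT15 and PBRT16, lines established from 1205LuTR xenograft tumors that had become resistant to PLX8394, a BRAF inhibitor of the paradox breaker kind, and both were kept in 500 nM PLX8394. No library of a PBRT line without drug and no library of parental cells with drug was used here, so the resistant line and the drug cannot be told apart. PBRT15 and PBRT16 are 1 tumor-derived line each. Separate cultures behind the 2 libraries of a group are stated nowhere, so the spread on which the p-values rest may be technical.

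Guidance cues steer growing axons and migrating cells, including the neural crest cells from which melanocytes arise. Semaphorins act through plexins, and most secreted class 3 semaphorins need a neuropilin as co-receptor. SLIT proteins act on ROBO receptors, netrins on DCC, which mediates attraction, and on the UNC5 receptors, which mediate repulsion, and ephrins on the Eph receptor kinases of neighbouring cells.

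Values were the deposited normalised read counts, a signal already on a common scale, with library totals between 27877963 and 29580752. The number of reads behind them is unknown, and no interval for counting error can be given. SOX10, a transcription factor of the neural crest and melanocyte lineage, was at 4360.5 and 4103 in the parental libraries, 0 and 0.791 in PBRT15 and 1.49 and 0.778 in PBRT16. Of the 9 melanoma markers, TYR was listed at 0 in all 6 libraries and MLANA stayed at or below 16.2, whereas MITF was at 109 and 113 in the parental libraries, 823 and 927 in PBRT15 and 2209 and 2159 in PBRT16. S100B was at 10992 and 8075 in parental cells and at most 1.67 in any PBRT library. MIA was at 4005 and 4307 in parental cells and at most 38.2 in any PBRT library. Like SOX10, S100B and MIA were called lower in both lines. SOX10, S100B and MIA passed the filter on low values, described below, only through the parental libraries, so a fall was their only outcome. MITF was the only one of the 9 called higher. MITF, a master factor of pigment cells, was thus present with little or no transcript of these pigmentation markers.

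Of the 57 members, 48 passed the filter on low values and were tested with limma on log2(value + 1). A gene was called, and is said to have risen or fallen, where its Benjamini-Hochberg adjusted p was 0.05 or less and the groups differed 2-fold or more. In PBRT15, 12 members were higher and 12 lower than in parental cells, 50% of those tested, where 23.6% of all 16555 genes were called. In PBRT16, 9 members were higher and 10 lower, 39.6% of those tested, where 23.1% of all genes were called. Between PBRT16 and PBRT15, 4 members were higher and 5 lower, 18.8% of those tested against 9.26% of all genes (4.49% higher and 4.77% lower). By the adjusted p alone, at any fold, 17 members were higher and 17 lower in PBRT15, where 21.6% and 19.5% of all genes were. For PBRT16 the counts were 14 and 14, where 21.1% and 19% of all genes passed, and between PBRT16 and PBRT15 they were 7 and 6, where 7.5% and 8.28% of all genes passed. DCC was the only tested member that reached a value of 10 in 1 group alone, the parental one. The filter thus left a fall as its only outcome, and without it 11 members were lower in PBRT15 and 9 in PBRT16. These still include ROBO2, which outside the parental group reached 10 only in PBRT15 library 2. ROBO2 therefore also passed the filter only through the parental libraries. The comparisons with parental cells share the parental libraries, so their values are given side by side. Leaving out PBRT15 library 2 lowered the number of rises in PBRT15, and leaving out parental library 1 lowered the number of falls. Both numbers also dropped over all genes.

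By role, the calls split unevenly over the families. Of the netrin receptors, UNC5A, UNC5B and UNC5C were called lower in both lines, where 9.85% of all genes were lower in PBRT15 and 9.95% in PBRT16. Plexins were called higher for 3 of 9 genes in each line and lower for none, where 13.8% and 13.1% of all genes were higher. The members called higher in each line included SEMA4B, SEMA5A, PLXNC1, PLXND1, NTN4 and EFNB1. Those called lower included SEMA3B, NRP2 and EFNA5, besides ROBO2, which passed the filter only through the parental libraries. Since the parental libraries are shared, nothing is read from how many calls the lines have in common. Over the tested members PBRT15 had a median log2 fold change of 0.17 and PBRT16 one of -0.12, beside -0.0057 and -0.0021 over all genes tested.

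**Figure D1:**
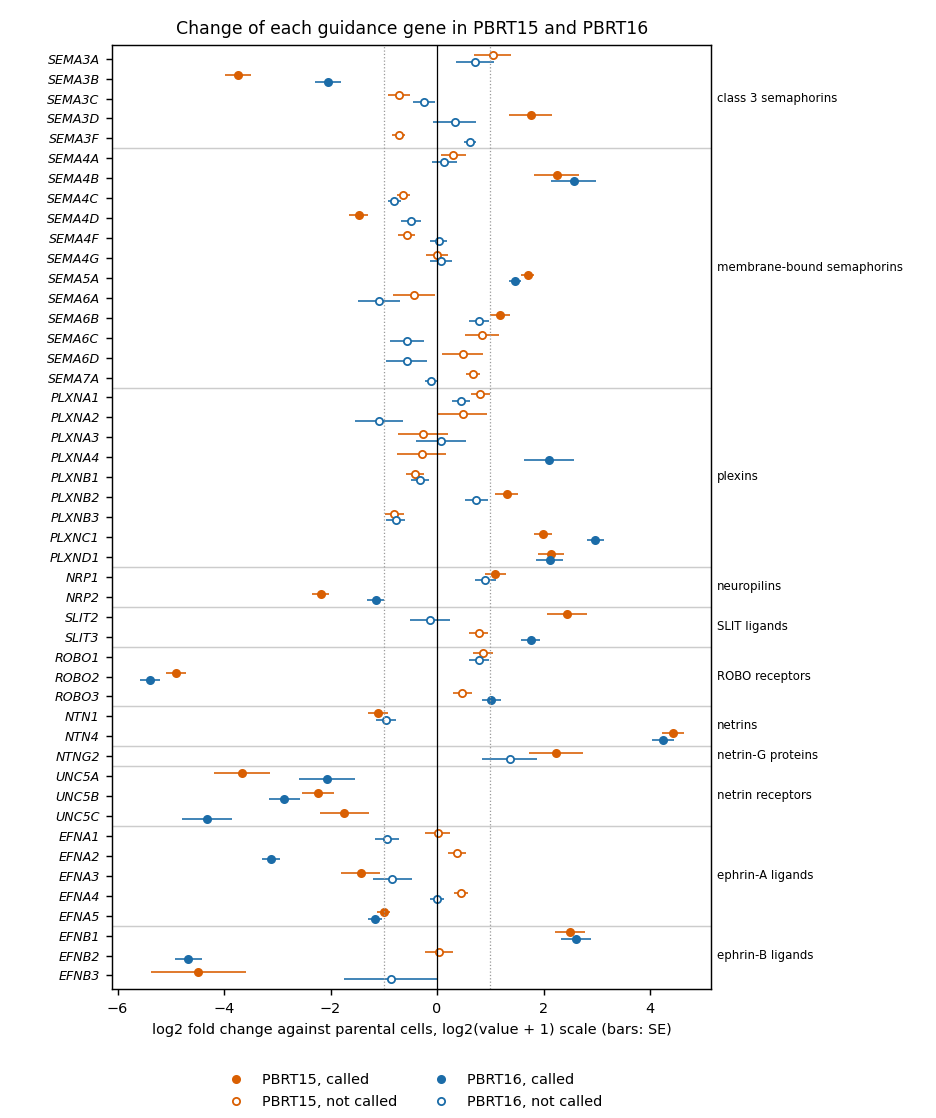
Log2 fold change against parental cells (x axis, log2(value + 1) scale) of 47 tested members, grouped by family, with SE bars from the limma fit; filled points were called and open points were not, and dotted lines mark a fold of 2. DCC is left out because it was listed at 0 in PBRT15 and PBRT16. ROBO2 passed the filter only through the parental libraries, so a fall was its only outcome. UNC5A, UNC5B and UNC5C sit left of the line in both cell lines, NTN4 lies farthest to the right at 4.43 and 4.25, and EFNB2 separates the 2 lines.

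Netrin genes changed in both lines on the ligand and the receptor side. NTN4, a secreted netrin of basement membranes that binds laminins, lies on chromosome 12 from 95657807 to 95791189 of GRCh38 and was at 181 and 125 in the parental libraries, 3472 and 3067 in PBRT15 and 2784 and 2967 in PBRT16. The 4 PBRT libraries all lay far above the parental ones, and the PBRT15 libraries slightly above the PBRT16 libraries. Its log2 fold change was 4.43 ± 0.21 (SE) in PBRT15 and 4.25 ± 0.21 in PBRT16, with limma adjusted p of 0.000305 and 0.000346, the largest rise of any member in each line. NTN1, the classical netrin cue that can attract or repel axons, moved the other way, at 1378 and 1750.0 in the parental libraries, 655 and 794 in PBRT15 and 757 and 838 in PBRT16. It fell in PBRT15 (log2 fold change -1.11 ± 0.18 (SE), limma adjusted p = 0.00946). In PBRT16 its log2 fold change was -0.96 (limma adjusted p = 0.0143), just under a fold of 2, and without parental library 2 or PBRT15 library 1 the PBRT15 value too came under it, at -0.93 and -0.97. Per kilobase of transcript, NTN4 made up 17.8% and 10.5% of the summed netrin level in the parental libraries, 89.3% and 85.6% in PBRT15 and 85.7% and 85.3% in PBRT16. NTN4 thus took the place of NTN1 as the main netrin transcript in both resistant lines.

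DCC, the receptor through which netrin attracts axons, lies on chromosome 18 from 52340197 to 53535899. It was at 168 and 75.6 in the parental libraries and was listed at 0 in all 4 PBRT libraries, so no fold is given. DCC passed the filter only through the parental libraries, so no p-value is given for it. UNC5A, a repulsive netrin receptor, was at 100.3 and 120.5 in the parental libraries, 4.69 and 12.4 in PBRT15 and 17.5 and 36.5 in PBRT16. Every PBRT library lay below both parental libraries, with the PBRT15 libraries lowest. The log2 fold change of UNC5A was -3.67 ± 0.53 (SE) in PBRT15 (limma adjusted p = 0.00642) and -2.07 ± 0.53 in PBRT16 (limma adjusted p = 0.0336). The PBRT16 call was lost without parental library 1 (-2.20, adjusted p = 0.103), parental library 2 (-1.94, adjusted p = 0.124) or PBRT16 library 1 (-1.56, adjusted p = 0.118).

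UNC5B, a further repulsive receptor that is also known from blood vessels, was at 107 and 129.8 in the parental libraries, 18.3 and 31.7 in PBRT15 and 13.6 and 17 in PBRT16. The groups of both lines lay below the parental group without overlap. It fell by 2.24 ± 0.29 (SE) on the log2 scale in PBRT15 and fell by 2.87 ± 0.29 in PBRT16, with limma adjusted p of 0.00489 and 0.00243. UNC5C, on chromosome 4 from 95162504 to 95549206, was at 288 and 253 in the parental libraries, 49.2 and 130.3 in PBRT15 and 14.1 and 11.3 in PBRT16. Its levels stepped down from parental cells to PBRT15 and from PBRT15 to PBRT16, with no overlap between any 2 groups. The log2 fold change was -1.74 ± 0.47 (SE) in PBRT15 (limma adjusted p = 0.0390) and -4.31 ± 0.47 in PBRT16 (limma adjusted p = 0.00287), and the PBRT15 call was lost without either parental library (adjusted p = 0.141 and 0.112) or either PBRT16 library (adjusted p = 0.0658 and 0.0651). UNC5C-AS1, a transcript on the opposite strand that shares 78 exon bases with UNC5C, was at 31.2 and 28.5 in the parental libraries, 6.09 and 6.69 in PBRT15 and 1.81 and 0.939 in PBRT16, the same order as UNC5C. No source used here says whether the counting used the strand, so reads of a gene and its antisense transcript may not be separable. UNC5D was listed at 0 in all 6 libraries. Summed per kilobase, the netrin receptors went from 88.8 and 84.9 in parental cells to 9.04 and 21.5 in PBRT15 and 8.15 and 13.4 in PBRT16, while the netrins went from 280.2 and 327 to 1073 and 989 in PBRT15 and 897 and 961 in PBRT16.

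Netrin receptors were low in both PBRT lines, so the 250 bases before the transcription start are shown for the 3 of them that were detected in parental cells and found in the promoter table, from RefSeq, build GRCh38.p14, 5′ to 3′ on the gene's strand. UNC5B is the detected netrin receptor for which none is shown. SEMA3B and SEMA3F are shown beside them because they are neighbours that were both higher in PBRT16 than in PBRT15. The SEMA3B window, set by the RefSeq start, lies inside the longer GENCODE span of that gene given with its values. These 5 were picked after their values were seen, and capitals mark a motif match.
UNC5A, plus strand, chr5:176810309-176810558: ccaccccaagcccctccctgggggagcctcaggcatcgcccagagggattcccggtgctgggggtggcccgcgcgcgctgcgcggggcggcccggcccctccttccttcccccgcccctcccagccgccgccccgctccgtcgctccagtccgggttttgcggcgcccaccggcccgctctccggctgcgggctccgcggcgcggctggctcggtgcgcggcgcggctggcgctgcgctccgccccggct
UNC5C, minus strand, chr4:95548974-95549223: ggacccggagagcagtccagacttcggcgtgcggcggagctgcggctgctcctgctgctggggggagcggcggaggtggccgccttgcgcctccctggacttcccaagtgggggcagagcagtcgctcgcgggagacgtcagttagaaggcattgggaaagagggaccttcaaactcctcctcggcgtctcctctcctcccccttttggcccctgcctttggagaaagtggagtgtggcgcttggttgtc
DCC, plus strand, chr18:52339947-52340196: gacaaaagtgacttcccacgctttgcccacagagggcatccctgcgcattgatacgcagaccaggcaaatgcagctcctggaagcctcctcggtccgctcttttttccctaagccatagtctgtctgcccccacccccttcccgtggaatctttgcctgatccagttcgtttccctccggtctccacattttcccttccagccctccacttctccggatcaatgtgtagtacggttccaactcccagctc
SEMA3B, plus strand, chr3:50268911-50269160: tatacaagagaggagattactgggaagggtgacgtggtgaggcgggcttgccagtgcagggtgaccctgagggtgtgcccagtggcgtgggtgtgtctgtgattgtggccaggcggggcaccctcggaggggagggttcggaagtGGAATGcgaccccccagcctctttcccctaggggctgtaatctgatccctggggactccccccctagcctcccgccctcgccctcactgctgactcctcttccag
SEMA3F, plus strand, chr3:50155074-50155323: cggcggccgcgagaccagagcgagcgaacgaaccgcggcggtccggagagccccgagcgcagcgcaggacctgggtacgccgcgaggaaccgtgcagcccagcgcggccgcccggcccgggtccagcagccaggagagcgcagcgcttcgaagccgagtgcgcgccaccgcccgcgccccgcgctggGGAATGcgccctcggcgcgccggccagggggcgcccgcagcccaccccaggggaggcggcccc

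A search for 6 motifs covered both strands of these windows in the 47 members with a promoter in that table. The motifs were the SOX-type ACAAAG and ACAATG, the E-boxes CACGTG and CATGTG, the AP-1-type TGANTCA and the TEAD-type GGAATG. The 3 netrin receptor windows held none of them. GGAATG stood in the windows of SEMA3B, SEMA3F and PLXNB3, 3 of 47 members, beside 11.9% of the 35116 promoter windows in the table. ACAAAG stood in 4 members, EFNA1, EFNA2, PLXNA2 and PLXNC1, beside 13.7% of all windows, ACAATG in PLXNB3 alone, beside 9.29%, and CATGTG in NRP2, PLXNB2, ROBO1 and SEMA3G, beside 9.42%. CACGTG was found in SEMA3E and SEMA4D, beside 6.34% of all windows, and TGANTCA in 0 members, beside 6.57%. The members' windows had a median GC content of 70.0%, against 58.0% over the table, and the medians were 65.8% for the 12 members that rose in either line and had a window and 70.0% for the 11 that fell. The window of PLXNB2 starts 5977 bases and that of SEMA4D 2457 bases from the start of the transcript used for their levels, while the other 45 lie within 100 bases of it. The letters describe these windows only.

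Among the secreted class 3 semaphorins, SEMA3B fell most. SEMA3B, a ligand that acts through neuropilins and plexins A and lies on chromosome 3 from 50267558 to 50277546, was at 2314 and 2110.5 in the parental libraries, 131 and 206 in PBRT15 and 506 and 560.2 in PBRT16. The 3 groups did not overlap, and PBRT15 was lowest. For SEMA3B the log2 fold change was -3.74 ± 0.24 (SE) in PBRT15 and -2.05 ± 0.24 in PBRT16, with limma adjusted p of 0.000685 and 0.00358. SEMA3C, which is known to promote rather than repel growth of some axons, carried most of what remained: it made up 37% and 35.3% of the summed class 3 level per kilobase in the parental libraries, 72.7% and 73.8% in PBRT15 and 60.5% and 61.7% in PBRT16. Its own values were 2184 and 1850.3, 1039 and 1450.3 and 1613 and 1767, and it was not called in either line (log2 fold change -0.71 and -0.25). SEMA3D, at 31 and 18.1 in parental cells, rose in PBRT15 to 64 and 107 (log2 fold change 1.76 ± 0.40 (SE), limma adjusted p = 0.0243) and stood at 37.5 and 24.2 in PBRT16. That call was lost without parental library 2 or PBRT15 library 2 (1.39 in each case, adjusted p = 0.0940 and 0.0936). SEMA3A, the prototype repellent ligand of NRP1, was at 50.9 and 37.1, 116 and 71 and 90.4 and 57.4 and was not called.

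Of the 12 tested semaphorins anchored in the membrane, SEMA4B and SEMA5A rose in both lines. SEMA5A, which carries thrombospondin repeats in its extracellular part, was the most abundant of them per kilobase in both PBRT lines and was at 3713 and 3487 in the parental libraries, 12096 and 11275 in PBRT15 and 9456 and 10419 in PBRT16. All 4 PBRT libraries lay above the parental ones, PBRT15 above PBRT16. It had a log2 fold change of 1.70 ± 0.12 (SE) in PBRT15 and one of 1.46 ± 0.12 in PBRT16 (limma adjusted p = 0.000910 and 0.00137). SEMA4B was at 78.7 and 130.2 in the parental libraries, 388 and 604 in PBRT15 and 447 and 816 in PBRT16. The 2 libraries of each group lay well apart, but no PBRT library came down to the parental range. SEMA4B changed by 2.25 ± 0.43 (SE) on the log2 scale in PBRT15 and 2.56 ± 0.43 in PBRT16 (limma adjusted p = 0.0144 and 0.00977), and the PBRT15 call was lost without parental library 1 (1.89, adjusted p = 0.0669) or PBRT15 library 2 (1.93, adjusted p = 0.0643).

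SEMA4D and SEMA6B were called in PBRT15 alone. SEMA4D, a ligand of PLXNB1, was at 359 and 298 in the parental libraries, 103 and 134 in PBRT15 and 229.6 and 237 in PBRT16. PBRT16 lay between the other groups without overlap. It fell by 1.47 ± 0.18 (SE) on the log2 scale in PBRT15 (limma adjusted p = 0.00407), against a log2 fold change of -0.49 in PBRT16 (limma adjusted p = 0.0908), and the difference between the lines passed the adjusted p at under 2-fold (0.99, limma adjusted p = 0.0306). SEMA6B, a transmembrane ligand of plexins A, was at 309 and 338, 638 and 839 and 514 and 610.1 in the same order of groups. Both lines lay above parental cells. It rose in PBRT15 (log2 fold change 1.18 ± 0.19 (SE), limma adjusted p = 0.00842), which came to 0.98, under a fold of 2, without PBRT15 library 2, and in PBRT16 it passed the adjusted p (0.0268, limma) at a log2 fold change of 0.79. SEMA6C was not called in either line against parental cells, at 67.5 and 108, 169.8 and 138 and 70.6 and 46. The other 7 tested membrane-bound semaphorins, SEMA4A, SEMA4C, SEMA4F, SEMA4G, SEMA6A, SEMA6D and SEMA7A, were not called in any comparison, with log2 fold changes against parental cells between -1.09 (SEMA6A in PBRT16) and 0.67 (SEMA7A in PBRT15). SEMA4C, the second most abundant of the anchored semaphorins per kilobase in PBRT15, was at 1483 and 1512 in the parental libraries, 895 and 1036 in PBRT15 and 857 and 859.8 in PBRT16, lower by under 2-fold, a difference that passed the adjusted p in both lines (limma adjusted p = 0.0157 and 0.00798).

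**Figure D2:**
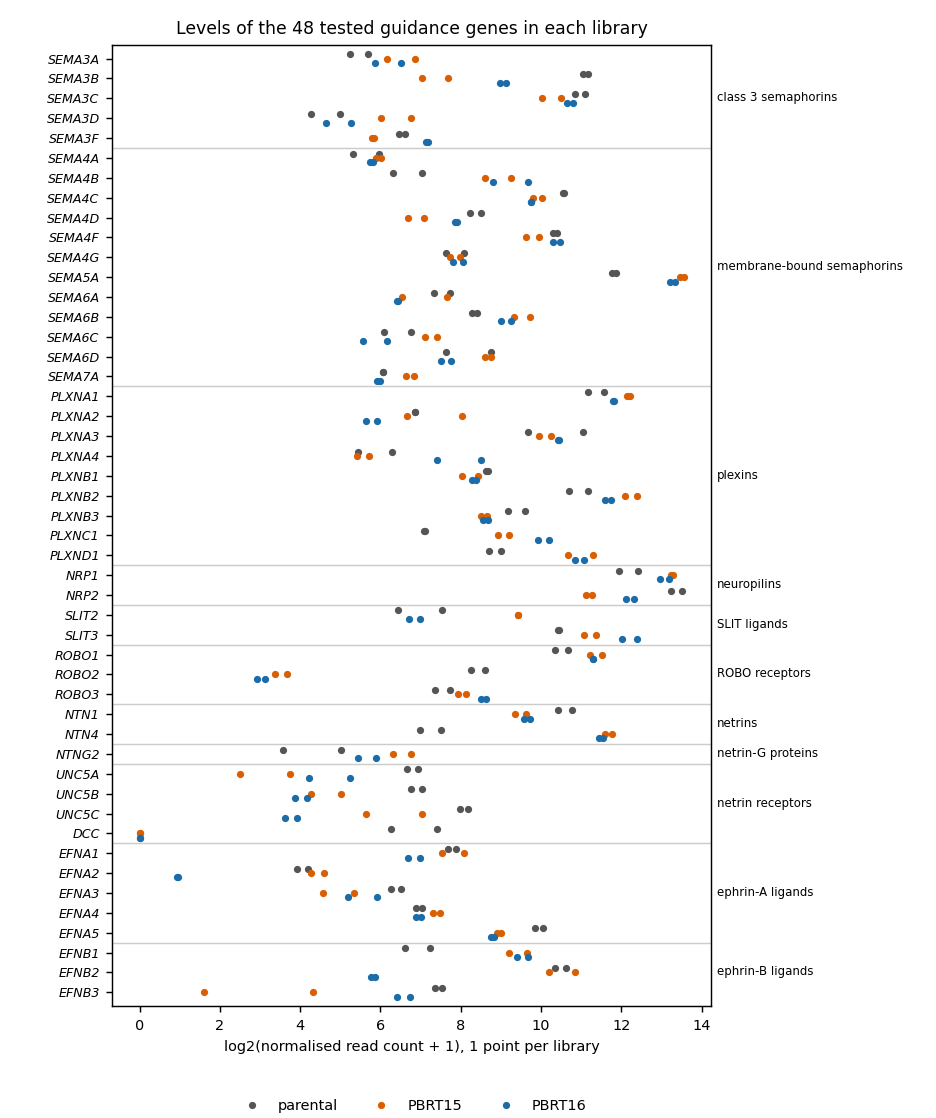
Level of each of the 48 tested members in each library (x axis, log2(normalised read count + 1)), grouped by family, with 1 point per library and a colour per group. DCC stands at 0 in the 4 PBRT libraries, the PBRT points of ROBO2 lie near the left end while its parental points lie at 386 and 302, and EFNB2 is low in the PBRT16 libraries alone.

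On the receptor side, PLXNC1 and PLXND1 rose in both lines. PLXNC1, the receptor of SEMA7A, was at 136 and 134 in the parental libraries, 591 and 489.8 in PBRT15 and 966 and 1180.2 in PBRT16. The groups did not overlap and PBRT16 was highest. The log2 fold change of PLXNC1 was 1.98 ± 0.16 (SE) in PBRT15 and 2.97 ± 0.16 in PBRT16 (limma adjusted p = 0.00134 and 0.000454). CEP83, which shares 177 exon bases with PLXNC1 on the opposite strand, was at 507 and 467 in the parental libraries, 413 and 346 in PBRT15 and 386 and 357 in PBRT16, the opposite direction. PLXND1, the receptor of SEMA3E and known from blood vessel patterning, was at 508 and 416 in the parental libraries, 1642 and 2515 in PBRT15 and 1845 and 2150.0 in PBRT16. The PBRT lines overlapped each other and lay above the parental libraries. PLXND1 changed by 2.14 ± 0.25 (SE) on the log2 scale in PBRT15 and 2.11 ± 0.25 in PBRT16 (limma adjusted p = 0.00350 and 0.00373), while SEMA3E, its ligand, did not pass the filter, with values from 0 to 1.61. SEMA7A, the ligand of PLXNC1, was at 65.6 and 65.9, 113 and 97.6 and 59.4 and 62.7.

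PLXNB2, a receptor of class 4 semaphorins, was the most abundant plexin per kilobase in every library. Its values were 1652 and 2311 in the parental libraries, 4364 and 5389 in PBRT15 and 3104 and 3402 in PBRT16. The groups stood apart with PBRT15 highest. It rose in PBRT15 (log2 fold change 1.31 ± 0.21 (SE), limma adjusted p = 0.00930) and passed the adjusted p in PBRT16 (0.0491, limma) at a log2 fold change of 0.73. PLXNA4, a receptor of class 3 and class 6 semaphorins, was at 42.1 and 76.6 in the parental libraries, 41.6 and 51.6 in PBRT15 and 169 and 359.8 in PBRT16. The parental and PBRT15 libraries overlapped, and PBRT16 lay above both with its own libraries well apart. It rose in PBRT16 (log2 fold change 2.10 ± 0.46 (SE), limma adjusted p = 0.0224), a call lost without parental library 1 (1.67, adjusted p = 0.0928) or PBRT16 library 2 (1.56, adjusted p = 0.0684), and its value in PBRT15 was -0.29. The other 5 plexins, PLXNA1, PLXNA2, PLXNA3, PLXNB1 and PLXNB3, were not called in any comparison. PLXNA1 stayed the most abundant of these, at 2283 and 3044, 4750.3 and 4533 and 3569 and 3631, and PLXNB3, a receptor of SEMA5A, was at 771 and 577, 361 and 403 and 373 and 406, under 2-fold lower in both lines (limma adjusted p = 0.0234 and 0.0260). PLXNA3 had parental values of 2127 and 809, a spread wider than any difference between its groups.

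The neuropilins, co-receptors of class 3 semaphorins and of VEGF ligands, went in opposite directions. NRP2, on chromosome 2 from 205681990 to 205798133, was at 11578 and 9682 in the parental libraries, 2211 and 2453 in PBRT15 and 5119.8 and 4440.5 in PBRT16. The 3 groups were clear of each other, with parental cells highest. NRP2 changed on the log2 scale by -2.18 ± 0.16 (SE) in PBRT15 and -1.15 ± 0.16 in PBRT16 (limma adjusted p = 0.000903 and 0.00542). NRP1 was at 3903 and 5409 in the parental libraries, 9702 and 9955 in PBRT15 and 7977 and 9317 in PBRT16. All PBRT libraries lay above both parental libraries. NRP1 rose in PBRT15 (log2 fold change 1.10 ± 0.20 (SE), limma adjusted p = 0.0122) and in PBRT16 passed the adjusted p (0.0214, limma) at 0.91, under a fold of 2. The PBRT15 call was lost without parental library 1 (0.86, under 2-fold), PBRT15 library 1 (adjusted p = 0.0502) or PBRT15 library 2 (adjusted p = 0.0552). Per kilobase, NRP1 made up 28.4% and 39.7% of the neuropilin level in the parental libraries, 83.8% and 82.7% in PBRT15 and 64.7% and 71.2% in PBRT16, whereas the sum of both genes stayed between 2053 and 2435 in all 6 libraries. The neuropilin pool was thus close in size but of another make-up.

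Apart from DCC, ROBO2 fell farthest of the member receptors in both lines. ROBO2, a SLIT receptor on chromosome 3 from 75906695 to 77649964, was at 386 and 302 in the parental libraries, 9.3 and 11.8 in PBRT15 and 7.67 and 6.64 in PBRT16. No PBRT library came near the parental level. It fell by 4.90 ± 0.19 (SE) on the log2 scale in PBRT15 and fell by 5.39 ± 0.19 in PBRT16 (limma adjusted p = 0.000188 and 0.000146). ROBO1, the most abundant ROBO receptor per kilobase in every library, was at 1291 and 1634, 2374 and 2949.9 and 2497 and 2521 and passed the adjusted p at under 2-fold in both lines (log2 fold change 0.87 and 0.79, limma adjusted p = 0.0192 and 0.0252). ROBO3, known from axons that cross the midline, was at 163 and 213 in the parental libraries, 277 and 243 in PBRT15 and 363 and 395 in PBRT16. Parental cells were lowest and PBRT16 highest, without overlap. The call was made in PBRT16 (log2 fold change 1.02 ± 0.18 (SE), limma adjusted p = 0.0108) and was lost without parental library 1 (0.83) or PBRT16 library 2 (0.96, adjusted p = 0.0573) and with values scaled to the library total.

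The SLIT ligands differed by line. SLIT2 was at 85.1 and 184 in the parental libraries, 689 and 682 in PBRT15 and 125 and 104 in PBRT16. The PBRT15 libraries lay above all others, and the PBRT16 libraries lay within the parental range. It rose in PBRT15 (log2 fold change 2.44 ± 0.38 (SE), limma adjusted p = 0.00784), and in PBRT16 the log2 fold change was -0.13 ± 0.38 (SE). SLIT3, the most abundant SLIT per kilobase in every library, was at 1376 and 1399 in the parental libraries, 2163 and 2640.0 in PBRT15 and 4154 and 5324 in PBRT16. The 3 groups did not overlap, with parental cells lowest. It rose in PBRT16 (log2 fold change 1.76 ± 0.18 (SE), limma adjusted p = 0.00242) and passed the adjusted p in PBRT15 at under 2-fold (0.78, limma adjusted p = 0.0251).

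Ephrin-B ligands, transmembrane ligands that also signal into the cell that carries them, changed in kind. EFNB2, on chromosome 13 from 106489745 to 106535662, was at 1583 and 1293 in the parental libraries, 1842 and 1168 in PBRT15 and 52.9 and 57.3 in PBRT16. The PBRT15 libraries spanned the parental range, and both PBRT16 libraries lay far below it. EFNB2 fell by 4.67 ± 0.25 (SE) on the log2 scale in PBRT16 (limma adjusted p = 0.000439), against a log2 fold change of 0.04 ± 0.25 (SE) in PBRT15. A transcript on the opposite strand that shares 1822 exon bases with EFNB2 was at 12.1 and 22.3 in parental cells and at 21.2 and 36.9 in PBRT15. Both PBRT16 libraries listed it at 0. EFNB1, on chromosome X from 68829021 to 68842160, was at 96.7 and 151 in the parental libraries, 590.2 and 806 in PBRT15 and 679 and 809 in PBRT16. The PBRT lines overlapped each other and lay above parental cells. EFNB1 rose by a log2 fold change of 2.50 ± 0.28 (SE) in PBRT15 and 2.61 ± 0.28 in PBRT16 (limma adjusted p = 0.00310 and 0.00279).

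EFNB3 was at 183 and 164 in the parental libraries, 2.03 and 19.1 in PBRT15 and 84.8 and 106 in PBRT16. Its PBRT15 libraries were lowest and also the farthest apart. It fell by 4.48 ± 0.89 (SE) on the log2 scale in PBRT15 (limma adjusted p = 0.0162), a call lost without parental library 1 (adjusted p = 0.0743) or parental library 2 (adjusted p = 0.0659), and had a log2 fold change of -0.86 in PBRT16 (limma adjusted p = 0.473). Per kilobase, EFNB2 made up 78.6% and 72.8% of the ephrin-B level in the parental libraries, 67.3% and 48.4% in PBRT15 and 4.37% and 3.96% in PBRT16, while EFNB1 made up 7.27% and 12.8%, 32.6% and 50.4% and 84.8% and 84.6%. PBRT16 thus carried mostly EFNB1, and PBRT15 carried EFNB1 and EFNB2 side by side.

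**Figure D3:**
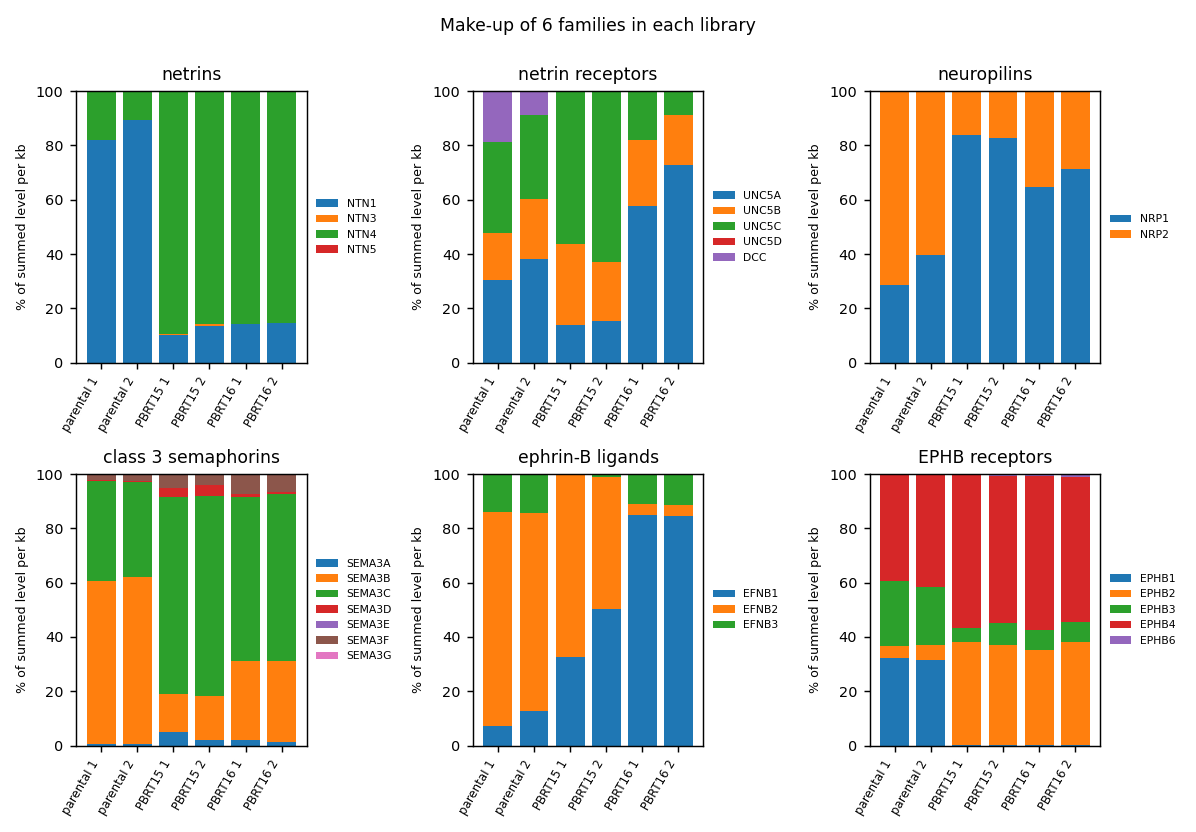
Share of each gene in the summed level per kilobase of its family (y axis, %), for 6 families and each of the 6 libraries. NTN1 gives way to NTN4, NRP2 to NRP1 and EPHB1 to EPHB2 in both PBRT lines, and EFNB2 holds 78.6% and 72.8% of the ephrin-B level in parental cells but 4.37% and 3.96% in PBRT16.

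Among the ephrin-A ligands, which are anchored by a lipid, EFNA5 fell in both lines. EFNA5 was at 1059 and 922 in the parental libraries, 509 and 476 in PBRT15 and 454 and 428 in PBRT16. The PBRT libraries lay below the parental ones by about the same amount. EFNA5 had a log2 fold change of -1.0 ± 0.13 (SE) in PBRT15 and -1.16 ± 0.13 in PBRT16 (limma adjusted p = 0.00455 and 0.00303), and the PBRT15 value, at the edge of a fold of 2, came under it with a pseudocount of 5 and without parental library 1 (-0.90) or PBRT15 library 2 (-0.96). EFNA2 was low throughout, at 17.2 and 14.2 in the parental libraries, 23.3 and 18.1 in PBRT15 and 0.9 and 0.938 in PBRT16. PBRT16 lay below both other groups, with both its libraries under 1. EFNA2 fell by 3.12 ± 0.17 (SE) on the log2 scale in PBRT16 (limma adjusted p = 0.000461). EFNA3 was at 90.6 and 75.8, 22.7 and 39.5 and 35.4 and 59.2 in the order of groups. It fell in PBRT15 (log2 fold change -1.44 ± 0.36 (SE), limma adjusted p = 0.0330), a call lost without parental library 1 (adjusted p = 0.131), parental library 2 (adjusted p = 0.0904) or PBRT15 library 1 (adjusted p = 0.106). EFNA3 shares 853 exon bases with the readthrough gene EFNA4-EFNA3, which was listed at 0 in every library. EFNA1 and EFNA4, its neighbours on chromosome 1, were not called.

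NTNG2, a lipid-anchored netrin-G protein of synapses, was at 31.5 and 10.9 in the parental libraries, 78.4 and 107 in PBRT15 and 42.4 and 57.8 in PBRT16. It rose in PBRT15 (log2 fold change 2.23 ± 0.51 (SE), limma adjusted p = 0.0252), a call lost without PBRT15 library 1 (adjusted p = 0.0676) or PBRT15 library 2 (adjusted p = 0.104). The 9 members that did not pass the filter were SEMA3E, SEMA3G, SEMA5B, SLIT1, ROBO4, NTN3, NTN5, NTNG1 and UNC5D, with values between 0 and 19.1 in any library. NTN3 reached the highest of these, at 8.13 and 19.1 in PBRT15 against 0 and 1.02 in parental cells.

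PBRT16 and PBRT15, which were compared directly, differed in 9 members. EFNB2 and EFNA2 showed the widest called gaps, with log2 differences of -4.71 ± 0.25 (SE) and -3.49 ± 0.17 for PBRT16 minus PBRT15 (limma adjusted p = 0.00159 and 0.00126). EFNB3, with a difference of 3.62 ± 0.89 (SE), was not called (limma adjusted p = 0.0572). SLIT2 and UNC5C were also lower in PBRT16, with log2 differences of -2.57 ± 0.38 (SE) and -2.57 ± 0.47 (limma adjusted p = 0.0180 and 0.0297), as was SEMA6C (-1.41 ± 0.32, limma adjusted p = 0.0484). Higher in PBRT16 were PLXNA4 (2.39 ± 0.46, limma adjusted p = 0.0340), SEMA3B (1.69 ± 0.24, limma adjusted p = 0.0168) and NRP2 (1.03 ± 0.16, limma adjusted p = 0.0194). SEMA3F, a repellent ligand that binds NRP2, completed the list, at 87 and 97.2 in the parental libraries, 54.3 and 56.3 in PBRT15 and 144 and 139 in PBRT16. Its PBRT15 libraries lay below and its PBRT16 libraries above the parental ones. The difference was 1.34 ± 0.12 on the log2 scale (limma adjusted p = 0.00560), and against parental cells the values were -0.72 for PBRT15 and 0.62 for PBRT16, both of which passed the adjusted p (limma, 0.00931 and 0.0150) at under 2-fold. SEMA3F lies on chromosome 3 from 50155045 to 50189075, 78483 bases from SEMA3B, and both genes were higher in PBRT16.

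EFNB2, EFNA2 and SEMA3F kept the call without any single library. The other 6 lost it. For SEMA3B this happened without PBRT16 library 1 or 2 (adjusted p = 0.0719 and 0.0815). NRP2 and SLIT2 lost it without any of the 4 PBRT libraries (adjusted p from 0.0619 to 0.0899 for NRP2 and from 0.0727 to 0.0848 for SLIT2). PLXNA4 lost it without PBRT15 library 1, PBRT15 library 2 or PBRT16 library 2 (adjusted p = 0.133, 0.0993 and 0.0997) and UNC5C without either parental or either PBRT16 library (adjusted p from 0.0603 to 0.123). SEMA6C lost it without any of the 6 libraries (adjusted p from 0.0544 to 0.173). Without PBRT16 library 2, 1 member was higher and 2 were lower in PBRT16, without PBRT16 library 1 there were 2 of each, and without PBRT15 library 2 there were 3 lower.

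**Figure D4:**
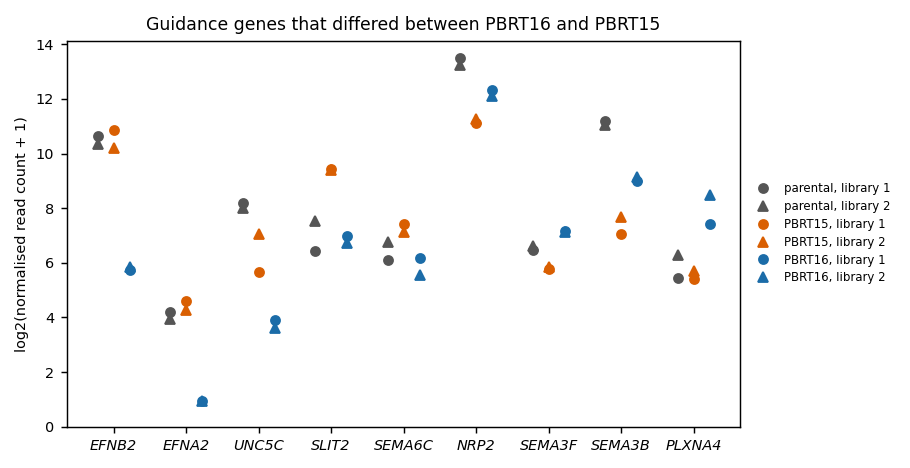
Level in each library (y axis, log2(normalised read count + 1)) of the 9 members called between PBRT16 and PBRT15, ordered by their log2 difference; colours are groups and symbols the 2 libraries of a group. EFNB2 and EFNA2 are lowest in PBRT16, SLIT2 is highest in PBRT15, and SEMA3F lies below the parental points in PBRT15 and above them in PBRT16.

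The receptors of the ephrins are no members and came from a list of 14 Eph receptors, of which 8 were tested. Eph receptors are receptor tyrosine kinases that bind ephrins on adjacent cells. Of these, 2 rose and 2 fell in PBRT15, while PBRT16 had 3 rises and 2 falls, 50% and 62.5% of those tested, beside 23.6% and 23.1% of all genes. EPHB1 was at 1192 and 1219 in the parental libraries, 6.01 and 5.48 in PBRT15 and 3.58 and 1.86 in PBRT16, whereas EPHB2 was at 380.3 and 501, 3941 and 4037 and 3552 and 3961. The lines thus had little EPHB1 and much EPHB2, the reverse of the parental cells. EPHB1 is counted among the falls but passed the filter only through the parental libraries. The filter thus left a fall as its only outcome, and no p-value is given for it. For EPHB2 the log2 fold change was 3.19 ± 0.17 (SE) and 3.10 ± 0.17 (limma adjusted p = 0.000435 and 0.000461). Per kilobase, EPHB2 made up 4.36% and 5.49% of the EPHB level in the parental libraries, 38.1% and 37% in PBRT15 and 35.2% and 38.1% in PBRT16. EPHB3 fell in both lines (log2 fold change -1.59 and -1.44, limma adjusted p = 0.00935 and 0.0126), EPHA4 rose in both (1.34 and 1.11, limma adjusted p = 0.0128 and 0.0225) and EPHB6 rose in PBRT16 (1.56, limma adjusted p = 0.0325). These 3 genes lost calls when a library was left out: in PBRT15, EPHA4 and EPHB3 without parental library 1 (adjusted p = 0.0661 and 0.0515), and in PBRT16, both without any of the 4 libraries compared (adjusted p from 0.0522 to 0.102) and EPHB6 without either parental library or PBRT16 library 2 (adjusted p from 0.107 to 0.114). EPHB4, the main receptor of EFNB2 in blood vessels, is named after its values were seen and held the largest EPHB share per kilobase in all 6 libraries and stayed under 2-fold, at 1338 and 1488, 2297 and 2334 and 2256 and 2189.

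Of the 18 other guidance cues and co-receptors, 11 were tested, with 2 higher and 5 lower in PBRT15 and 1 higher and 5 lower in PBRT16, beside 13.8% higher and 9.85% lower of all genes in PBRT15 and 13.1% and 9.95% in PBRT16. FLRT3 and FLRT2, which bind UNC5 receptors, were called lower in both lines. FLRT3 was at 1186 and 1022 in the parental libraries, 45.4 and 77 in PBRT15 and 151 and 161 in PBRT16, and FLRT2 at 1719.9 and 1195, 572 and 707 and 32.1 and 18.5. Their log2 fold changes were -4.19 and -2.81 for FLRT3 (limma adjusted p = 0.000698 and 0.00206) and -1.17 and -5.82 for FLRT2 (limma adjusted p = 0.0433 and 0.000479). The PBRT15 call of FLRT2 was lost without any of the 4 libraries of that comparison (adjusted p from 0.0679 to 0.166), and PBRT16 lay below PBRT15 (-4.65, limma adjusted p = 0.00327). The adhesion molecule CNTN1 fell most in PBRT15 (-4.85, limma adjusted p = 0.00120), and NRCAM, which associates with neuropilins, fell in both lines (-2.20 and -2.93, limma adjusted p = 0.00265 and 0.00121). L1CAM, a neuronal adhesion molecule, rose in PBRT16, from 5999 and 7878 to 23097 and 25295 (1.81, limma adjusted p = 0.00187), and was at 4571 and 4422 in PBRT15. LRRC4C, the ligand of NTNG1, and NFASC rose in PBRT15 (1.81 and 1.16, limma adjusted p = 0.0127 and 0.00370), where LRRC4C lost the call without parental library 2 or either PBRT15 library (adjusted p from 0.0515 to 0.0577).

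The list of 50 cytoplasmic effectors had 45 tested genes, of which 7 were higher and 5 lower in PBRT15 and 9 higher and 7 lower in PBRT16. That was 26.7% of them in PBRT15, near the 23.6% of all genes, and 35.6% in PBRT16, beside 23.1%. MICAL2, an enzyme of the family that oxidises actin downstream of plexins, was at 1479 and 1869.7 in the parental libraries, 4563 and 4192 in PBRT15 and 16682 and 15286 in PBRT16. It was the largest rise of the list in PBRT16 (log2 fold change 3.26 ± 0.16 (SE), limma adjusted p = 0.000344). The actin-binding ABLIM1 rose by 2.36 and 2.81 on the log2 scale and its relative ABLIM3 by 2.07 and 3.00 in PBRT15 and PBRT16 (limma adjusted p from 0.000743 to 0.00294). RRAS, a small GTPase that plexins inactivate, rose in both lines, from 383 and 330.0 to 1189.5 and 1507 in PBRT15 and 1035 and 1209 in PBRT16 (limma adjusted p = 0.00192 and 0.00292). Guanine nucleotide exchange factors were among the falls: NGEF, known as an effector of EphA receptors, was at 34.4 and 31.4, 1.86 and 3.56 and 3.59 and 5.36, TIAM1 at 1102 and 1311, 262 and 285 and 413 and 401 and VAV3 at 102 and 62.9, 8.6 and 38 and 11.5 and 9.26. NGEF is counted among the falls of both lines but passed the filter only through the parental libraries, so no p-value is given for it. TIAM1 was called in both lines (log2 fold change in PBRT15 -2.13, limma adjusted p = 0.000698). VAV3 was called in PBRT16 (-2.84, limma adjusted p = 0.0303), where it lost the call when any of the 4 libraries compared was left out. The kinase PAK3 fell from 777 and 455 in parental cells to 33.4 and 52.1 in PBRT15 and 42.2 and 78.1 in PBRT16 (limma adjusted p = 0.00331 and 0.00484).

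**Figure D5:**
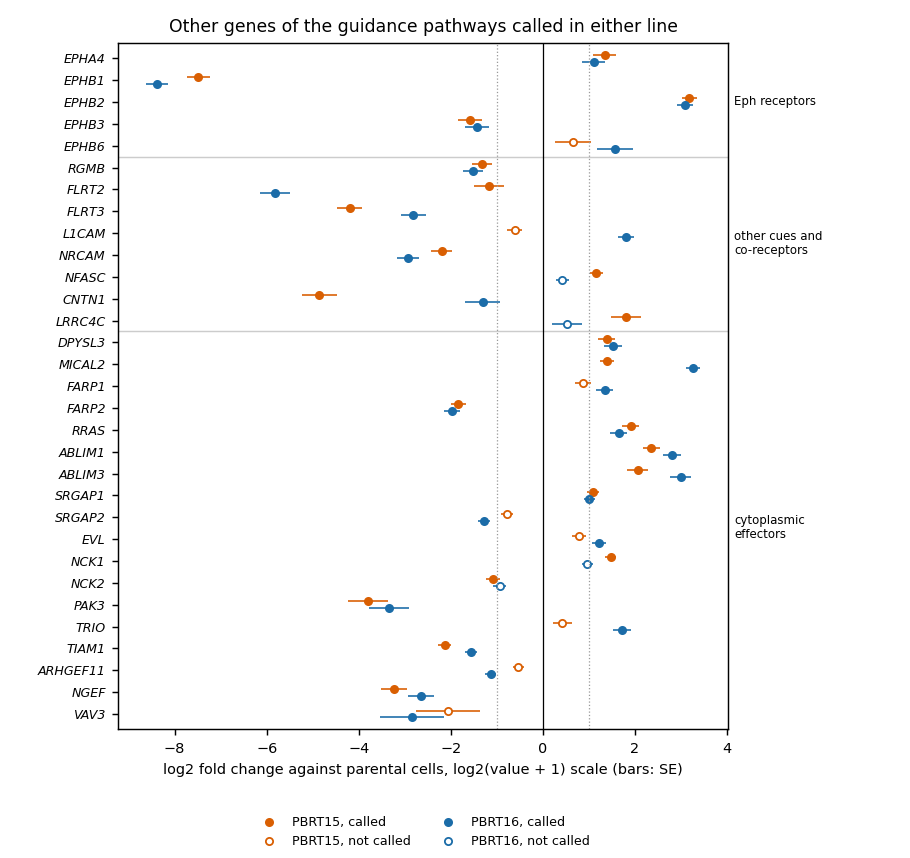
Log2 fold change against parental cells (x axis, log2(value + 1) scale, SE bars) of the 31 other pathway genes called in PBRT15 or PBRT16, grouped by list; filled points were called and open points were not. EPHB1 lies farthest to the left, EPHB2 lies at 3.19 and 3.10, and FLRT2 falls farther in PBRT16 than in PBRT15. EPHB1 and NGEF passed the filter only through the parental libraries, so a fall was their only outcome.

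Several members are also expressed by fibroblasts, endothelial cells and Schwann cells, so markers of these cells were read beside them. Summed over 8 fibroblast markers, the level was 6025 to 6944 in the parental libraries, 136361 to 146724 in PBRT15 and 18777 to 25095 in PBRT16, where 7 and 3 markers were called higher and, in PBRT16, 1 lower, with COL1A1, COL1A2 and THY1 leading in PBRT15 and LUM below 10 in every library. THY1, at 19573 and 19758 in PBRT15, was below 10 in every other library. It passed the filter only through PBRT15, so a rise was its only outcome. SLIT2 and SEMA3D rose in PBRT15, where the fibroblast marker sum was highest. In PBRT16 the sum also lay above the parental one, largely through COL1A1 (9942 and 14432) and PDGFRB (5447 and 6253). The other marker called higher there was DCN, at 33.6 and 39.2. COL1A2, at 19.9 and 15.4 in PBRT16, stayed near its parental 14 and 23.2, PDGFRA was not called and FAP was called lower. SLIT2 was within the parental range in PBRT16 and SEMA3D was not called. Whether either gene is linked to these markers was not tested. Of 7 endothelial markers, CDH5, TIE1 and CLDN5 stayed below 10 in every library. TEK was at 242 and 215 in PBRT15 and the only one called higher there. It was below 10 in every other library and passed the filter only through PBRT15, so a rise was its only outcome. PECAM1 reached 28 in 1 PBRT15 library. VWF, low throughout, was at 9.18 and 23.1 in parental cells and 3.48 and 4.91 in PBRT15 (-1.61, limma adjusted p = 0.0392). KDR was at 5.77 and 8.07 in parental cells and 0.91 and 1.71 in PBRT15, below 10 in both groups. It passed the filter only through PBRT16, at 11.4 and 15.2, so no p-value is given for it. The 7 endothelial markers summed to 21.2 to 43.3 in parental cells, 250.8 to 252.7 in PBRT15 and 38.0 to 39.5 in PBRT16. The 4 Schwann cell markers summed to 13726 to 17916 in parental cells and to 57.8 at most in any PBRT library, and SOX10 and S100B, which make up most of the parental sum, are also on the melanoma list. The low levels of DCC, ROBO2 and the UNC5 receptors in the PBRT lines went with them, and their part was not tested. In bulk RNA, fewer expressing cells and less RNA in each cell cannot be told apart. Of 6 immune markers all but CD68, which was called higher in both lines, were below 10 in every library. Of 5 neuron markers, SYT1, STMN2 and RBFOX3 were below 10 throughout, whereas SNAP25 was called higher in both lines and TUBB3 in PBRT15, and the list summed to 2619 to 3016 in the parental libraries, 6340 to 7093 in PBRT15 and 3362 to 4291 in PBRT16. The 4 keratinocyte markers summed to 48.9 at most.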

How the data were processed

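The 6 libraries were 2 each of parental 1205LuTR, PBRT15 and PBRT16 cells. Per the labels and the methods of the study, polyadenylated RNA was sequenced as stranded paired ends and quantified with RSEM on GRCh38; STAR 2.6.1a, Picard and DESeq2 also stand in the submitters' notes. The authors deposited 1 normalised signal per gene and library, not whole counts. How it was normalised is not stated in the sources used here, the depth is unknown, and no count model was run, since at most 53.5% of low values were whole multiples of a single step (tolerance 0.02).

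Gene IDs (60617, besides 45 pseudoautosomal copies) were matched without version to GENCODE 44, and levels between genes were compared per kilobase of the MANE Select transcript. The filter kept genes that reached 10 (after scaling to equal library totals) in 2 libraries or more and summed to 15 or more. With limma 3.58.1 in R 4.3.3, log2(value + 1) was fitted in all 6 libraries without a replicate block, with 3 residual degrees of freedom and a prior of 1.89, and p-values were adjusted by Benjamini-Hochberg over 16555 genes. A fold change on this scale understates the change of low genes. The steps were tested on simulated data.

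Members and lists were chosen with earlier results of these data known. By a fixed rule, members called in any comparison with a group mean of 100 or more are given in full, the others more briefly, and from each other list the 3 largest called rises and falls per line. Alternatives were other pseudocounts, filters, scalings and priors, fewer libraries or genes, other fold criteria, the block, and each library left out in turn.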

Additional observations from a re-analysis of the deposited data

Results flagged for a closer look

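Members whose change against parental cells differed between the resistant lines, by the direct limma test of PBRT16 against PBRT15, were SEMA3B (log2 difference of PBRT16 minus PBRT15 1.69), SEMA3F (1.34), PLXNA4 (2.39) and NRP2 (1.03), all higher in PBRT16, and SEMA6C (-1.41), SLIT2 (-2.57), UNC5C (-2.57), EFNA2 (-3.49) and EFNB2 (-4.71), all lower. The parental libraries cancel in this difference. EFNB2 and EFNA2 passed a test against a fold of 2 as well (limma adjusted p = 0.00317 in both). With 2 libraries a group, no library could be tested as standing apart from its group.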

How the results depend on the processing

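Under 20 alternatives, 2705 of 2871 member values kept their side of the threshold, 104 lost a call, 62 gained one and 0 called values reversed (40 values not called changed sign); of the 12 counts of called genes, 203 of 240 recomputed values stayed within 1.5 times. Limma's test against a fold of 2 left 5 rises and 6 falls of members in PBRT15 and 5 rises and 7 falls in PBRT16. DCC and ROBO2, which passed the filter only through the parental libraries, were among the falls of each line. Between PBRT16 and PBRT15 it left 0 rises (4 at an unadjusted p under 0.05) and 2 falls. For the other pathway genes it left 5 rises and 8 falls in PBRT15, 5 rises and 8 falls in PBRT16, and 2 rises and 1 fall between the lines. Over all genes the same test left 991 rises and 733 falls in PBRT15, 971 and 754 in PBRT16, and 151 and 220 between the lines. Without a fold threshold, members numbered 14 rises in PBRT16 and 7 between the lines, and the other pathway genes 19 rises and 20 falls in PBRT15 and 9 rises and 5 falls between the lines. The member counts between PBRT16 and PBRT15 (4 higher, 5 lower) also moved with other settings: 2 higher and 3 lower with no filter, 7 higher with upper-quartile scaling or scaling to the library total, 2 higher with 4 libraries in the fit and 3 lower with the replicate block. For the other pathway genes between the lines (5 higher, 1 lower), no filter gave 3 higher, and a pseudocount of 5 or a filter on the share of the library total 2 lower.

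Leaving out 1 library at a time gave 7 to 13 members higher for PBRT15 against parental, 7 to 11 members lower for PBRT15 against parental, 9 to 14 other pathway genes lower for PBRT16 against parental (9 without either parental library), 1 to 4 members higher for PBRT16 against PBRT15, 2 to 4 members lower for PBRT16 against PBRT15, 2 to 5 other pathway genes higher for PBRT16 against PBRT15, 1 to 2 other pathway genes lower for PBRT16 against PBRT15. Same-numbered libraries were not paired by the labels, their deviations correlated at 0.018, 0.038 and 0.136 over 16555 genes for the 3 pairs of groups, and the replicate block moved no other count by over 1.5 times. Counts over all genes also moved when a library was left out, and the cause of these shifts was not tested. The unknown depth limits what can be said of low values.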
